A study of Homo sapiens with 8 samples.

Results

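Of the 30195 origins of WT cells on chromosomes 1 to 22 and X, 1314 (4.35%) overlapped an origin of both ORC1Δ and ORC5Δ cells and no origin of ORC2Δ cells. Overlap was counted from 1 bp, and these origins, missing only from the ORC2Δ list, are the subject here. They were selected on presence or absence in the 3 knockout lists, so their levels in the knockout lines are given as descriptions and no test was made. By the same rule with the lines exchanged, 3756 WT origins (12.4%) were missing only in ORC1Δ cells and 861 (2.85%) only in ORC5Δ cells, while 18250 (60.4%) were present in all 4 lines.

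The origins were mapped by SNS-seq, the sequencing of short nascent DNA strands enriched by size and by lambda exonuclease, which digests DNA that lacks the RNA primer of a new strand. All 4 lines were HCT116, an epithelial colon cancer line, and all, WT included, were p53-/-; the other lines carried in addition a CRISPR–Cas9 knockout of ORC1, ORC2, or ORC5. Cells were grown in McCoy's 5a medium and each line had 2 replicates, 8 samples in all. A trace of truncated ORC2 protein has been reported by others in the ORC2Δ line, while the study did not detect it in its own lysates. SNS-seq does not measure the ORC proteins or their transcripts, so the knockouts were not checked in these data.

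ORC is the complex of ORC1 to ORC6 that, with CDC6 and CDT1, loads the MCM2–7 helicase onto DNA in G1 phase, a step named licensing. In S phase, kinases and further factors, among them CDC45 and the GINS complex, turn a part of the loaded helicases into active forks, and short nascent strands arise where forks start. Human origins share no strict sequence, but they are often rich in runs of G and lie near gene starts and CpG islands.

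The 240 bases at the centre of 5 of these origins show the kind of sequence involved. They are the 4 origins with the lowest and the 1 with the highest level in ORC2Δ relative to WT cells among the 768 with at least 100 WT reads. The sequences are from the forward strand of GRCh38, 5′ to 3′, with runs of 3 or more G or C in capitals.
CSNK1G2 first origin, chr19:1967890-1968129: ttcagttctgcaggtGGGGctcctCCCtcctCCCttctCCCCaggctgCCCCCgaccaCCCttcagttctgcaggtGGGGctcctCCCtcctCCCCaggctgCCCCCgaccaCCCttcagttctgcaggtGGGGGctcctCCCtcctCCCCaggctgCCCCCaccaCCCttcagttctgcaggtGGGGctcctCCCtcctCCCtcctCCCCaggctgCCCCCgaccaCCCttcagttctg
CSNK1G2 second origin, chr19:1959489-1959728: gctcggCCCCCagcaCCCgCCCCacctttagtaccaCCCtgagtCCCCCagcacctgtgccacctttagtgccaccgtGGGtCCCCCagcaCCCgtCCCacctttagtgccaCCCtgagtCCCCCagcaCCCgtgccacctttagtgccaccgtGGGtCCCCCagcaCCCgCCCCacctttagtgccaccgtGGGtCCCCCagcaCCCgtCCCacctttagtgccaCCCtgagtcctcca
E2F3 intron origin, chr6:20412446-20412685: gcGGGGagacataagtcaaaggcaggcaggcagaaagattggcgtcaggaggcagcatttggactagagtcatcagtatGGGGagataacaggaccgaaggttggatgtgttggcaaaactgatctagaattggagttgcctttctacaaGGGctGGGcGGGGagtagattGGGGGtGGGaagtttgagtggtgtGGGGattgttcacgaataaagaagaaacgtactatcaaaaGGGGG
DTNBP1 intron origin, chr6:15577414-15577653: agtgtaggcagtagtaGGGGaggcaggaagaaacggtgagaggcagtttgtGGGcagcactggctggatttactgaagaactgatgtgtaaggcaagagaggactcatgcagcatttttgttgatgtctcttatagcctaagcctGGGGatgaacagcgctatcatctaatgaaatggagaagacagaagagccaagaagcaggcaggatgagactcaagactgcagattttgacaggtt
TDRD12 intron origin, chr19:32746335-32746574: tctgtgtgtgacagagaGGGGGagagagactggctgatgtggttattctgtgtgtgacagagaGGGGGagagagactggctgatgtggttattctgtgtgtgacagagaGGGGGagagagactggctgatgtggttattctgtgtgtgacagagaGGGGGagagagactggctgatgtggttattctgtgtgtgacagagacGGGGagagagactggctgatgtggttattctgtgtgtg

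Both CSNK1G2 windows were rich in C runs on the forward strand, with 18 such runs each, while the E2F3 and DTNBP1 windows held 9 and 3 runs of G and none of C. The TDRD12 window is a tandem repeat: 99.5% of its bases equalled the base 46 positions further on. In the second CSNK1G2 window 91.5% of bases equalled the base 76 positions on, and in the first 60.2% did so at 54 positions. Windows with at least 80% equal bases at a distance of 5 to 100 bp made up 20 of the 1314 origins (1.52%) and 761 of all WT origins (2.52%). A repeat whose copies differ in length can fall below this limit, as the first CSNK1G2 window did, so these counts miss irregular repeats. The search for repeats was added after these sequences had been seen. At least 4 runs of GGG on one strand, or CCC as its complement, were found in 93.6% of the windows, close to the 92.9% of all WT origins.

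An origin absent from the ORC2Δ list was not without reads in ORC2Δ cells. The median origin had 107 WT reads and 97 ORC2Δ reads, where the median over all WT origins was 135 and 150. Scaled to the total reads in origins of each line (RPM), 6640888 for WT and 7808290 for ORC2Δ cells in this table, the medians of these origins were 16.1 RPM in WT and 12.4 RPM in ORC2Δ cells. The log2 ratio of ORC2Δ to WT had a median of −0.31, with quartiles of −0.51 and −0.12, against a median of −0.10 over all WT origins. The lowest ratio was −3.37 and the highest 1.20. Thus 177 of the 1314 origins had as many RPM in ORC2Δ as in WT cells or more, where 10181 of all 30195 WT origins did. A log2 ratio within 0.32 of 0 was found for 652 (49.6%), below the 74.5% of all WT origins.

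At the limit of 1.5-fold, 261 of these origins (19.9%) were lower in ORC2Δ than in WT cells, where 3.58% of all origins of the ORC2Δ and WT table passed this limit. Higher by 1.5-fold were 5 origins (0.381%), with 4.65% over that table, which also holds origins called only in ORC2Δ cells. Over WT origins alone, 5.18% were lower and 1.30% higher in ORC2Δ cells. The rule used the contrast, so nothing is read from these counts. In ORC1Δ cells the median log2 ratio was 0.0021, 9 origins (0.685%) were lower by 1.5-fold against 3.95% of the ORC1Δ and WT table, and 11 (0.837%) were higher against 7.03%. In ORC5Δ cells the median was −0.07, 3 origins (0.228%) were lower against 0.680%, and 4 (0.304%) were higher against 2.08%. Over WT origins alone, 5.43% were lower and 1.93% higher in ORC1Δ cells, and 1.02% and 0.553% in ORC5Δ cells. The ORC2Δ ratio was the lowest of the 3 lines for 998 origins (76.0%). The rule chose origins absent only in ORC2Δ cells, and this share was not counted over all WT origins. Nothing is read from it either. The 3 tables share the WT reads, so these ratios are not independent of each other. SNS-seq of a cell population does not tell apart fewer cells using an origin and a lower use of it in each cell. The samples hold no genomic DNA control, so a difference in DNA copy number between the lines was not measured.

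**Figure D1:**
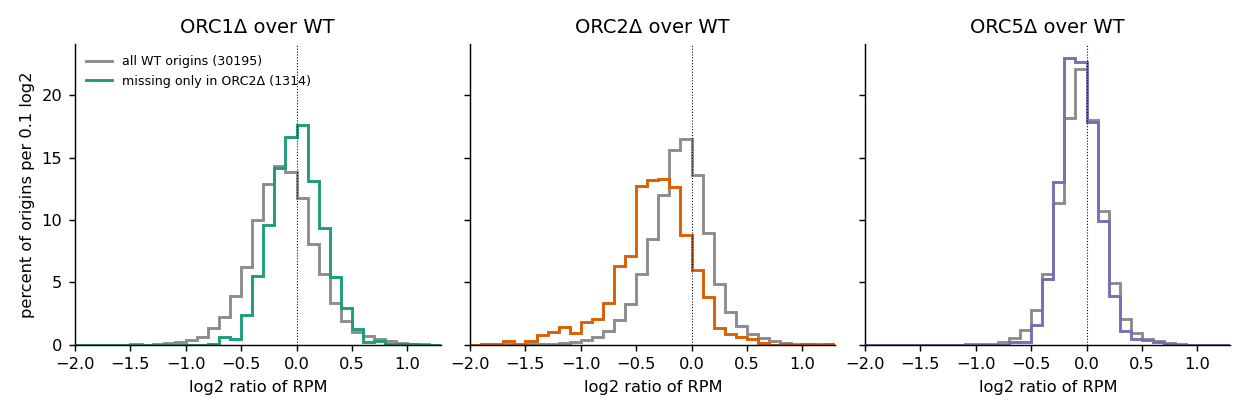
Distribution of the log2 ratio of RPM over WT for ORC1Δ (left), ORC2Δ (centre) and ORC5Δ cells (right), in steps of 0.1, for the 1314 WT origins missing only in ORC2Δ (coloured) and all 30195 WT origins (grey). The coloured line lies left of the grey one in ORC2Δ cells, with medians of −0.31 and −0.10, and the axis is cut at −2 and 1.3.

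Origins missing only in ORC1Δ cells had a median log2 ratio of −0.31 in the line that lacked them, as the present ones had in ORC2Δ cells. Of those, 584 (15.5%) were lower in ORC1Δ cells by 1.5-fold. Origins missing only in ORC5Δ cells had a median of −0.10 in ORC5Δ cells and 23 (2.67%) were lower by that limit.

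The 2 lowest origins lay in introns of CSNK1G2, a casein kinase 1 gene, on chromosome 19. The first (chr19:1967717-1968303) had 150 WT reads and 17 ORC2Δ reads, a log2 ratio of −3.37 with a 95% counting interval of −4.19 to −2.65. It had 153 WT and 102 reads in the ORC1Δ table and 164 and 208 in the ORC5Δ table, with log2 ratios of −0.65 and 0.03. The second (chr19:1959366-1959851) had 168 and 29 reads, or −2.77 (−3.39 to −2.19), with −0.10 in ORC1Δ and 0.07 in ORC5Δ cells. Hence both were low in ORC2Δ cells and not in ORC5Δ cells, and the first was also below WT in ORC1Δ cells.

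Origins beside them were less low. The ORC2Δ origin next to the second lay 322 bp away, and its WT and ORC2Δ reads were 475 and 357, a log2 ratio of −0.65. Next to the first, at 559 bp, an ORC2Δ origin had 157 and 88 reads, or −1.07. Of the 8 origins listed in and around CSNK1G2, the 6 others had ratios of −1.11 to −0.54. In the 5 Mb block that holds them the median of the 391 other WT origins was −0.04.

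The other 8 of the 10 lowest origins lay on chromosomes 6 and 18. In an intron of E2F3, a transcription factor of the G1 to S transition, WT and ORC2Δ reads were 140 and 52, a log2 ratio of −1.66 (−2.15 to −1.19), with −0.26 in ORC1Δ and −0.34 in ORC5Δ cells. In an intron of DTNBP1, which codes for dysbindin, they were 131 and 49, or −1.65 (−2.16 to −1.17), with 0.02 and −0.19 in the other lines. In an intron of ATXN1, the ataxin 1 gene, they were 101 and 40, or −1.57. The remaining 5, in FHOD3, a formin gene, and nearest to ZNF397, SLC22A23, FOXQ1, and RREB1, ranged from −1.64 to −1.39, and their ratios in ORC1Δ and ORC5Δ cells from −0.33 to 0.02.

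The 5 highest origins had ratios above 0 in every knockout line, although for that nearest to TNFSF10 the intervals in ORC1Δ and ORC5Δ cells included 0. In an intron of TDRD12, a tudor domain gene, WT and ORC2Δ reads were 149 and 371, a log2 ratio of 1.08 (0.80 to 1.37), with 0.73 in ORC1Δ and 0.54 in ORC5Δ cells. In an intron of KAZN they were 175 and 362, or 0.82, with 0.86 and 0.75. TMEM132C gave 0.58, and the origins nearest to PREX1 and TNFSF10 gave 0.53 and 0.50. These origins are absent from the ORC2Δ list although their RPM were higher in ORC2Δ than in WT cells. The list requires a peak in both replicates, and the tables merge the replicates, so the level in each replicate is not known here. The nearest ORC2Δ origin lay 24013 to 178909 bp from these 5. In the WT list every origin had another within 26017 bp. Whether peaks without a close neighbour were left out of the lists was not tested.

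The 5 origins with the most WT reads had log2 ratios of −0.22 to 0.01 in ORC2Δ cells. At the start of RAB43, a small GTPase gene, they were 960 in WT and 989 in ORC2Δ cells, a log2 ratio of −0.19 (−0.32 to −0.06), and at the start of MLF1 they were 855 and 1010, or 0.01 (−0.13 to 0.14). An origin in GARNL3 gave 0.01, and those nearest to KCNJ18 and NDUFA10 gave −0.22 (−0.36 to −0.09) and −0.03. The intervals of RAB43 and KCNJ18 thus lay below WT. Among further origins at gene starts with many WT reads were VKORC1L1 with 702 WT and 866 ORC2Δ reads, and the shared start of LIG1, DNA ligase 1, and ZSWIM9 with 671 and 768. Their log2 ratios of 0.07 and −0.04 are both within counting error of WT.

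**Figure D2:**
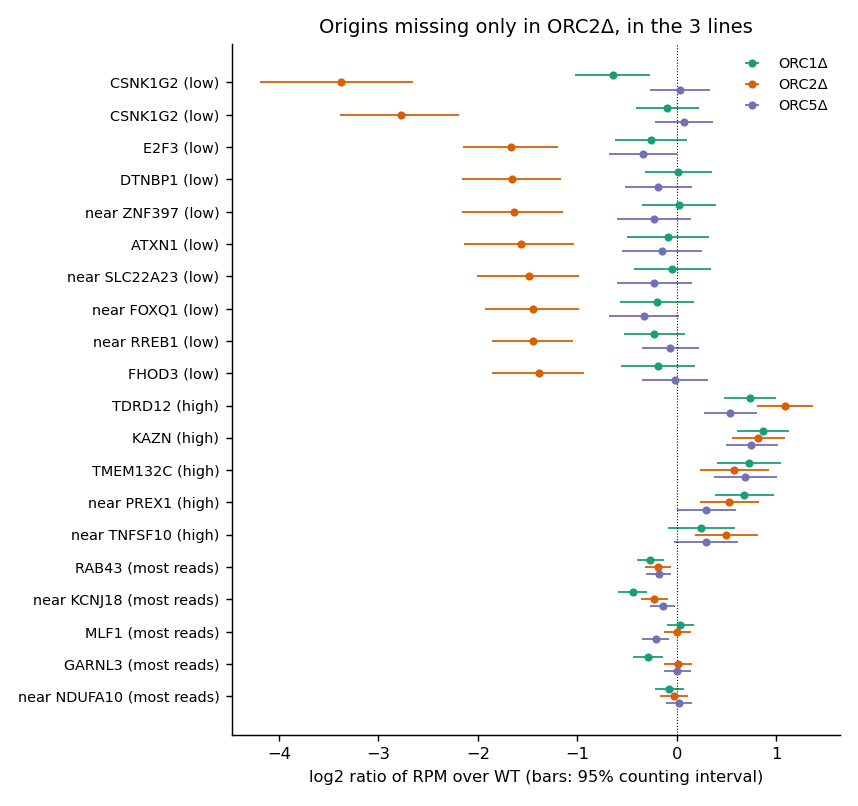
Log2 ratio of RPM over WT (x axis) in ORC1Δ, ORC2Δ and ORC5Δ cells of the 10 lowest and 5 highest origins by the ORC2Δ ratio and the 5 with most WT reads, with 95% Clopper-Pearson counting intervals as bars. The 10 lowest, chosen for that ratio, range from −3.37 to −1.39 in ORC2Δ cells, while the others lie between −0.44 and 1.08 in all 3 lines.

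The share of these origins lower by 1.5-fold differed with depth. In the fifth of WT origins with the fewest WT reads (47 to 94), 457 (7.37%) were missing only in ORC2Δ cells, and in the fifth with the most (227 to 4256) 106 (1.76%). From the fewest to the most reads, 18.2%, 24.9%, 23.9%, 14.7%, and 8.49% of them were lower by 1.5-fold, the last being 9 of the 106. All 9 lay in 5 Mb blocks of chromosomes 6, 13, and 18. The other WT origins of these blocks also had a low median ratio in ORC2Δ cells. The share of all WT origins lower by 1.5-fold was not counted in the same bins of reads. Whether the differences with depth are particular to origins missing only in ORC2Δ cells was therefore not tested.

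The distance to the nearest ORC2Δ origin had a median of 29175 bp, with quartiles of 10743 and 99872 bp. It was at most 500 bp for 24 origins and over 100000 bp for 327 (24.9%). The nearest one inside the rule, in an intron of ADGRB2, lay 32 bp from an ORC2Δ origin and had 118 WT and 113 ORC2Δ reads, a log2 ratio of −0.30; the next, nearest to SMARCD3, lay 78 bp away with −0.52. Just outside the rule, an origin nearest to PANX2 overlapped an ORC2Δ origin by 136 bp and had a ratio of 0.32.

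The 1314 origins were unevenly spread. They made up 147 of 1339 WT origins on chromosome 6 (11.0%), 56 of 607 on chromosome 18 (9.23%), 41 of 534 on chromosome 13 (7.68%), and 112 of 1643 on chromosome 8 (6.82%). On chromosome 19 they were 52 of 2422 (2.15%) and on chromosome X 3 of 287 (1.05%).

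**Figure D3:**
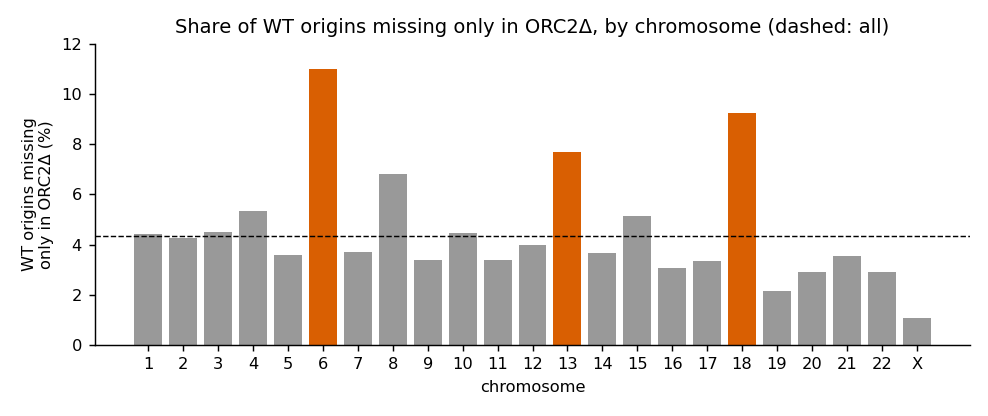
Percent of the WT origins of each chromosome that were missing only in ORC2Δ cells, with the share over all chromosomes (4.35%) as a dashed line. Chromosomes 6, 18 and 13 (coloured) have the highest shares, 11.0%, 9.23% and 7.68%.

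On chromosome 6, 92 of the 147 lay in segments where WT origins in general had few ORC2Δ reads, as did 24 of the 41 on chromosome 13 and 17 of the 56 on chromosome 18. Blocks of 5 Mb were called low where the median log2 ratio of at least 5 WT origins outside the 1314 was at or below a 1.5-fold decrease in ORC2Δ cells. There were 7 such blocks among 539, namely the first 25 Mb of chromosome 6 (5 blocks), 35 to 40 Mb on chromosome 18, and 110 to 115 Mb on chromosome 13. The median ratio of their other WT origins was −0.69 to −1.04 in ORC2Δ cells, and −0.36 to 0.33 in the 532 remaining blocks. In ORC1Δ and ORC5Δ cells it was −0.28 to −0.01 in the 7 blocks.

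These blocks held 133 of the 1314 origins (10.1%), against 1.38% of all WT origins, 11 of the origins missing only in ORC1Δ cells (0.293%), and 1 of those missing only in ORC5Δ cells (0.116%). Origins of the last 2 kinds are by rule present in ORC2Δ cells. The blocks were picked for low ORC2Δ ratios, so these low shares are partly set by the choice. Of the 261 origins lower by 1.5-fold, 117 (44.8%) lay in the blocks, compared with 21.1% of all WT origins lower by 1.5-fold and 47.4% of those present in all 4 lines. The median ratio was −0.96 for these 133 and −0.83 for the 285 other WT origins there. The WT origins of the blocks that kept an ORC2Δ origin (137) had a median of −0.64, and 196 WT reads compared with 121 for the 133. How far the level of the whole segment accounts for the absence of these origins was not tested. No sample measured the DNA copy number of these blocks, so it cannot be told apart from origin use here.

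Outside the 7 blocks, 1181 origins were left, with a median log2 ratio of −0.28 compared with −0.09 for the other WT origins there, and 144 (12.2%) lower by 1.5-fold compared with 3.81%.

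**Figure D4:**
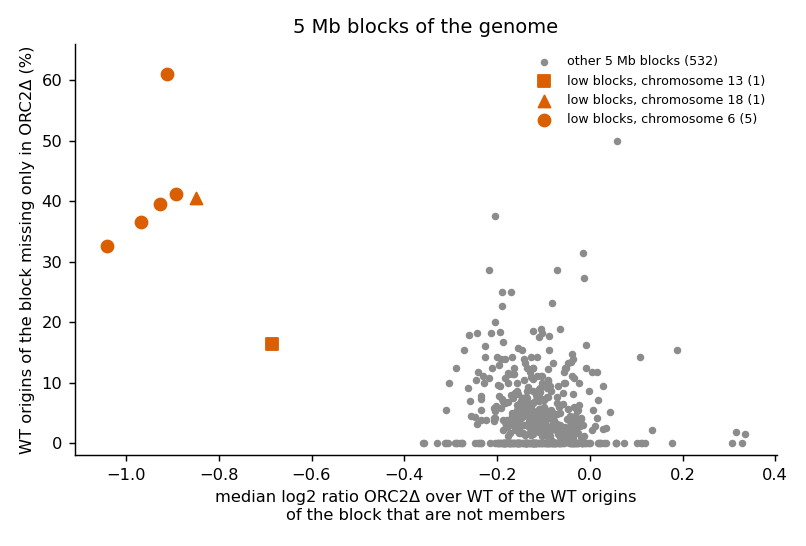
For each 5 Mb block with at least 5 WT origins that are not missing only in ORC2Δ cells, the median log2 ratio of ORC2Δ to WT over those origins (x axis) and the percent of WT origins of the block missing only in ORC2Δ cells (y axis). The 7 low blocks (coloured) lie at −1.04 to −0.69 with 16.4% to 61.1%, apart from the 532 others.

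In steps of 1 Mb, the low ratio on chromosome 6 went on to 27 Mb. From 0 to 27 Mb, 99 of 244 WT origins (40.6%) were missing only in ORC2Δ cells, 4 only in ORC1Δ, and 0 only in ORC5Δ cells. The ORC1Δ and ORC5Δ counts are of origins that the rule requires in the ORC2Δ list, so nothing is read from them. The median over all WT origins of this segment was −0.95 in ORC2Δ, −0.09 in ORC1Δ, and −0.09 in ORC5Δ cells. From 27 to 32 Mb 7 of 91 (7.69%) were missing only in ORC2Δ cells with a median of 0.13, and from 32 Mb on 41 of 1004 (4.08%) with −0.04. On chromosome 18, 17 of 42 (40.5%) were missing only in ORC2Δ cells between 35 and 40 Mb, with a median of −0.89, and 39 of 565 (6.90%) elsewhere with −0.10. Those elsewhere include 2 WT origins from 42 to 43 Mb, 0 of them missing only in ORC2Δ cells, with a median of −1.41. From 45 to 46 Mb the median was −0.15. On chromosome 13, the numbers were 24 of 138 (17.4%) from 111 to 115 Mb, with −0.74, and 17 of 396 (4.29%) before, with −0.13. Chromosome 2 began with a segment of high ratio, in which the first 20 Mb had a median of 0.32 in ORC2Δ cells and 2 of 254 WT origins (0.787%) were missing only there. The bounds of these segments were set after the values had been seen.

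Among the 532 remaining blocks with at least 5 WT origins outside the 1314, 3 had more than 30% of their WT origins missing only in ORC2Δ cells. From 25 to 30 Mb on chromosome 6 it was 11 of 35, which includes the 2 Mb of low ratio up to 27 Mb. From 60 to 65 Mb on chromosome 1 it was 7 of 14, and from 195 to 200 Mb on chromosome 2 it was 6 of 16. In these last 2 blocks the other WT origins had medians of 0.06 and −0.20.

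Neighbouring WT origins were often missing together. The next WT origin on the chromosome belonged to the 1314 for 371 of them (28.2%), and for 306 of the 1181 outside the low blocks (25.9%), where 4.35% of all WT origins belonged to them. The median gap within these pairs was 11415 bp. In all, 665 origins (50.6%) had another as a direct neighbour, in 294 runs of 2 to 8, of which 244 were pairs. Every WT origin had another within 26017 bp. If peaks without a close neighbour were left out of the lists, loss of 1 peak could remove the next one too. This was not tested, so nothing about ORC2Δ cells is read from these shares.

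The longest run, 8 consecutive WT origins on chromosome 6, began at the start of E2F3 (chr6:20402929-20404231) and ended in the long noncoding RNA CASC15 beside SOX4. At the E2F3 start there were 478 WT and 224 ORC2Δ reads, a log2 ratio of −1.33 (−1.56 to −1.10), with −0.44 in ORC1Δ and −0.13 in ORC5Δ cells. The second was the E2F3 intron origin printed above. In CDKAL1, a tRNA modifying enzyme gene, the 2 intron origins had 101 and 68, and 65 and 44 reads in WT and ORC2Δ cells, ratios of −0.80 both times. The 2 origins beyond CDKAL1 gave −0.72 and −0.68 and the 2 in CASC15 −1.05 and −0.91. In ORC5Δ cells the 8 origins ranged from −0.34 to 0.03 and in ORC1Δ cells from −0.44 to 0.37. The 5 Mb block held 18 WT origins, 11 of them missing only in ORC2Δ cells, and the 7 others had a median of −0.91 in ORC2Δ cells.

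By position, the origins were poorer in gene starts and CpG islands than WT origins in general. Within 500 bp of the start of a protein-coding gene were 88 (6.70%), compared with 11.8% of all WT origins, 14.6% of those missing only in ORC1Δ, and 9.64% of those missing only in ORC5Δ cells. A CpG island overlapped 99 (7.53%), compared with 16.4%, 21.9%, and 10.8%. Exons of protein-coding genes were overlapped by 9.51%, compared with 17.7% of all WT origins. The share in protein-coding gene bodies was 58.1%, near the 59.9% of all WT origins, and 373 (28.4%, compared with 28.3%) lay in no protein-coding or long noncoding RNA gene.

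In sequence, they were less rich in G and C. Median GC content was 51.1%, compared with 54.8% for all WT origins, 56.2% for those missing only in ORC1Δ, and 52.0% for those missing only in ORC5Δ cells. Median absolute GC skew, the imbalance of G over C whatever the strand, was 0.372, compared with 0.341 for all WT origins, 0.288 for origins missing only in ORC1Δ, and 0.363 for those missing only in ORC5Δ cells. Median absolute TA skew was 0.156, compared with 0.143 for all WT origins. The median width was 496.5 bp, compared with 525 bp. The highest G4Hunter score in windows of 25 bases, a measure of the tendency to form G-quadruplexes, had a median of 1.84, compared with 2.08 for all WT origins.

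GC content and reads moved together with membership. The share of WT origins missing only in ORC2Δ cells was 6.51% in the fifth with the lowest GC content and 1.52% in the fifth with the highest. Outside the low blocks these shares were 5.94% and 1.34%, and 6.92% and 1.63% for the bins with the fewest and the most WT reads. Median GC content was 49.5% for these origins in the fifth with the fewest reads, compared with 50.5% for all WT origins in it, and 58.6% compared with 60.7% in the fifth with the most. Gene starts made up 28.3% of these origins in the fifth with the most reads, above the 21.7% of all WT origins in it, and 2.84% in the fifth with the fewest, below 5.29%. The part of reads and GC content in the absence of an origin from the list was not tested.

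**Figure D5:**
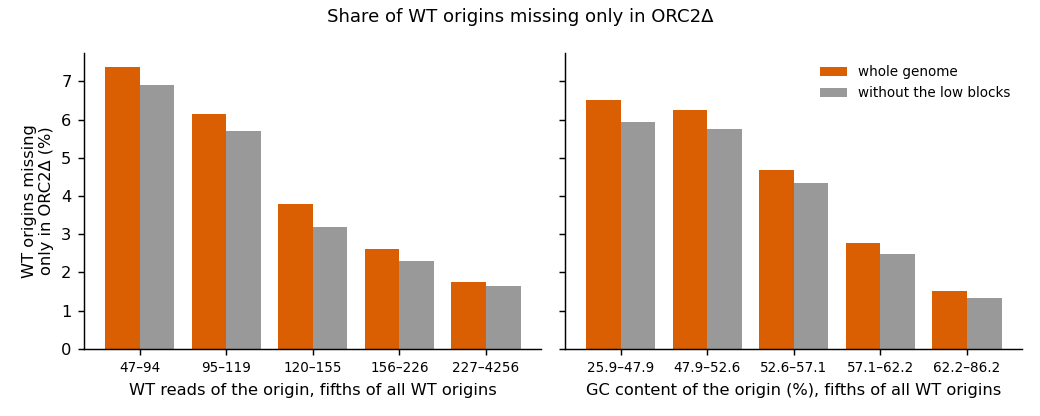
Percent of WT origins missing only in ORC2Δ cells in 5 bins of equal size of all WT origins by WT reads (left) and GC content (right), over the whole genome and without the 7 low blocks. The share falls from 7.37% to 1.76% with reads and from 6.51% to 1.52% with GC content.

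The origins lay in 592 of the 7380 protein-coding genes that held a WT origin. Of 34 genes of origin licensing and firing, 12 held 18 WT origins. Of these origins, 3 (16.7%) were missing only in ORC2Δ cells, compared with 4.35% of all WT origins. That at the start of CDC45, the helicase activator, had 170 WT and 189 ORC2Δ reads, a log2 ratio of −0.08 (−0.39 to 0.23). The one in GINS3, a GINS subunit, had 83 and 78 reads, or −0.32 (−0.79 to 0.14), and the one in MTBP, which acts in origin firing, 85 and 112, or 0.16 (−0.26 to 0.59). All 3 intervals included 0. In 26 genes of DNA damage checkpoint and repair there were 14 WT origins and 0 of the 1314. With so few WT origins in either list, nothing is read from these counts.

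Of 47 protein-coding genes of the 6p22 to 6p25 bands, 23 held 73 WT origins. Of these origins, 31 (42.5%) in 12 genes were missing only in ORC2Δ cells. That is near the 40.6% of all WT origins from 0 to 27 Mb on chromosome 6, and above the 4.35% of all WT origins. In F13A1, which codes for a subunit of coagulation factor XIII, it was 5 of 6, with log2 ratios of −1.35 to −0.48 in ORC2Δ, −0.09 to 0.41 in ORC1Δ, and −0.28 to 0.15 in ORC5Δ cells. In ATXN1 it was 5 of 8, with −1.57 to −0.85 in ORC2Δ cells, and in PHACTR1 4 of 7, with −1.39 to −0.36. Some origins were nearer to WT. An intron origin of NEDD9, a scaffold protein gene, had 131 WT and 159 ORC2Δ reads, a ratio of 0.05 (−0.30 to 0.39). The same origin was at 0.48 in ORC1Δ and 0.53 in ORC5Δ cells. An intron origin of TMEM14B and MAK had 201 and 211 reads, or −0.16 (−0.45 to 0.12), with 0.59 in ORC1Δ and 0.55 in ORC5Δ cells. The PHACTR1 origin at −0.36 had an interval of −0.79 to 0.07.

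At least 4 of the origins were found in 12 genes, and 8 of these lay in the low segments of chromosomes 6, 13, and 18. They were ATXN1, F13A1, PHACTR1, and CARMIL1 on chromosome 6, CELF4 and FHOD3 on chromosome 18, and ATP11A and MCF2L on chromosome 13. Their medians were −1.06 to −0.87 in ORC2Δ cells. In CELF4, an RNA-binding protein gene, it was 6 of 17 WT origins, and in ATP11A, a phospholipid flippase gene, 5 of 11. The other 4 genes had higher medians of −0.36 (CDH13), −0.23 (LIG1), −0.19 (SYBU), and −0.09 (DIS3L2). In both DIS3L2, an exonuclease gene, and SYBU all 4 WT origins were missing only in ORC2Δ cells, with ratios of −0.53 to 0.10 and −0.61 to 0.20.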

How the data were processed

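SNS-seq data of 4 lines with 2 replicates each were used as deposited. Per the study's methods and the submitters' processing notes, reads were trimmed with Trim Galore (0.6.4) and aligned to GRCh38 with Bowtie. Peaks were called with MACS2 in each replicate, and peaks found in both were kept as origins, handled with bedtools. The paper also describes grouping peaks closer than the median distance between peaks into clusters, named initiation zones. No WT origin lay more than 26017 bp from the next. Whether the lists hold only clustered peaks was not tested. An origin missing from a list may thus have had a peak in both replicates. The authors deposited these lists, which give positions without heights, and 3 tables of raw read counts, not normalized, in the joined origins of WT and 1 knockout line. The tool used for counting is not given in the sources used here. The tables merge replicates, so no test was made, and intervals cover counting error only. Duplicate reads, where kept, are not separate molecules.

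Counts summed to 6416892 to 8523971 per line and table. RPM were counts scaled to these totals, and origins were called at 1.5-fold without a pseudocount or filter, as in the study's methods. Single ratios have 95% Clopper-Pearson intervals on the share of reads. All 1314 origins matched a row of the ORC2Δ table exactly; in the other tables a joined origin can be wider. Genes came from GENCODE 44, and CpG islands were segments over 200 bp with at least 50% GC and observed over expected CpG above 0.6. Start sites had a window of 500 bp on each side. On simulated counts for the 44447 origins of the ORC2Δ table, 200 origins with at least 100 WT reads were given a log2 ratio of −1.5. All 200 were recovered, and 110 of the unchanged ones were called lower. Recovery of smaller decreases, or of origins with fewer reads, was not simulated. Python 3.11.15 with pandas 2.3.3, SciPy 1.17.1, and pysam 0.24.0 was used, with edgeR 4.0.16 and DESeq2 1.42.0 for scaling factors only.

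The origins, gene lists, and segments were chosen with earlier results of these data known. Origins named are the 10 lowest and 5 highest by ORC2Δ ratio with at least 100 WT reads, the 5 with most WT reads, the 5 with most at a gene start, the longest run, the 2 nearest to each side of the rule, and those in the gene lists, of which some origins and 1 list are not reported here; genes with at least 4 were added after their values had been seen. Other overlaps, scalings, thresholds, filters, regions, and windows were tried as alternatives.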

Additional observations from a re-analysis of the deposited data

How the results depend on the processing

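No paired analysis was possible because the tables merge the replicates of a line and their columns carry no replicate numbers, and for the same reason no replicate could be left out. Of 34 alternatives, 22 left the value within its interval or, for counts, within 1.5 times, and 12 moved it. The number of origins stayed between 1290 and 1323. The median log2 ratio in ORC2Δ cells was −0.27 with edgeR TMM factors, −0.27 with DESeq2 size factors, −0.28 after correction for GC content, −0.29 without the first 20 Mb of chromosome 6, and −0.28 without the low blocks, an alternative added after seeing the data. In ORC1Δ cells it changed sign, from 0.0021 to −0.048, after correction for GC content. The number lower in ORC2Δ cells was 633 at a limit of 0.32 on the log2 scale, 67 at 2-fold, and 144 without the low blocks. In 500 bp around the midpoint, median absolute GC skew was 0.359, compared with 0.339 for all WT origins. By the midpoint alone, 4.87% lay at a gene start and 4.79% in a CpG island, compared with 8.90% and 10.1% of all WT origins. At about 100 reads per line and origin, depth limits single ratios, as the intervals of the named origins show.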

Other observations

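Outside chromosomes 1 to 22 and X, 5 of 199 further WT origins met the same rule. Tandem repeats, found in 18 of the 1181 origins outside the low blocks, had a median log2 ratio of −0.03 in ORC2Δ cells, where the 1163 without a repeat had −0.28. Among other WT origins outside the low blocks the medians were 0.05 for 726 with a repeat and −0.09 for 27870 without. Of the 18, 2 were lower and 1 was higher by 1.5-fold in ORC2Δ cells, the last being the TDRD12 origin. The search for repeats was added after the sequences of the named origins had been seen, and the difference was not tested.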
